A study of Mus musculus with 2 samples.

Results

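Gata4, Gata6, Sox17, Nkx2-5, Gata1, Tal1, Myod1, Hnf4a and Pdx1 encode transcription factors that direct the formation of tissues outside the nervous system, and their loci were examined in cells on the way to motor neurons. An interval of open chromatin was assigned to one of these 9 genes if, among all protein-coding genes, one of them had the nearest transcription start site (TSS). By this rule 54 of 119502 intervals belonged to 8 of the 9 genes, and none belonged to Gata1.

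The intervals come from ATAC-seq, in which the Tn5 transposase cuts and tags accessible DNA, performed on live cells to serve as a standard for an assay on fixed cells. The Olig2-mKate2 mouse embryonic stem (ES) cell line carries the fluorescent protein mKate2 behind Olig2, a gene of motor neuron progenitors. Cells were grown on embryonic fibroblast feeders, which were removed before differentiation, and were taken at day 5 after 100 nM retinoic acid and 100 nM SAG, an agonist of Sonic hedgehog signalling, from day 3. They were sorted as mKate2-positive, and 50000 entered each transposition. The labels call them NPs. The sort can also take up newly formed motor neurons, since mKate2 is tied to Olig2 expression and not to a single state. The study adds that some cells with both OLIG2 and NKX2.2, a marker of the more ventral p3 progenitors, are included.

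There was 1 group of 2 replicates of this reporter line, with 31876165 counts in intervals in replicate 1 and 31672240 in replicate 2. No comparison between conditions could be made, and nothing in the labels says whether the replicates were separate cultures. Promoters of 6 of 6 neural progenitor genes examined had a TSS interval, with 946 ± 23.2 normalised counts per kb at Olig2 and 1452 ± 27.3 at Nkx6-1 (SD, n = 2). Pax6 was far lower at its outermost TSS, with 187 ± 3.57, and had 1121 ± 12.3 at another coding start. Of 8 fibroblast genes, 4 had one (50.0%), with a median of 277. Of 6 pluripotency genes, 4 had one (66.7%; Tfcp2l1, Klf4, Zfp42 and Esrrb, with a median of 401), and Pou5f1 and Nanog had none. Over all protein-coding genes the share was 61.5% and the median 884, so neither share was far from that of all genes. With the start of any coding transcript, 5 of the 8 fibroblast genes had an interval, and Pdgfra reached 860 ± 39.6.

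Master regulators of this kind bind DNA in the regulatory regions of many genes at once, and several of them can redirect a cell to their lineage when supplied to it. In cells of another fate they are usually silent, often under Polycomb repression of CpG-rich DNA, although accessible chromatin at a locus does not by itself mean that the gene is transcribed. GATA factors bind a short site centred on the letters GATA, and basic helix-loop-helix factors such as Tal1 and Myod1 bind E-boxes. Neither RNA nor histone marks were measured here. In a bulk library, a small number of cells with an open site and a weaker opening in every cell cannot be told apart.

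The sequences below are shown because they carry the main contrasts among the 9 genes: the densest interval of Sox17 and of Gata4, which stood above the other members, the densest interval of Tal1, Myod1 and Hnf4a, and stretches before a start of Gata1 and Hnf4a where no interval was found. Each interval is given by its central 200 bases on the plus strand, each promoter stretch by the 250 bases before the RefSeq start (GRCm38.p6, the assembly of mm10) on the strand of the gene. Capitals mark matches on either strand to 7 motifs. For GATA factors the letters were AGATAA. For E-boxes one form was CAGCTG, and the other form searched was CAGATG. The homeodomain core was written as TAATTA, the site of SOX factors as ACAATG and the site of FOX factors as TGTTTAC. The last motif, which is part of the CTCF consensus, was AGGGGGC.
Sox17, intergenic, chr1:4571699-4571898: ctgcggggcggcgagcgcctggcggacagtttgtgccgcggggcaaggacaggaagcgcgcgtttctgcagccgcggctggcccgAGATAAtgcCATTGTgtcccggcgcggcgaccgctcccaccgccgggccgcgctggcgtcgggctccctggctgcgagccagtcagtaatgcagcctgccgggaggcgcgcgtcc
Gata4, intron, chr14:63255808-63256007: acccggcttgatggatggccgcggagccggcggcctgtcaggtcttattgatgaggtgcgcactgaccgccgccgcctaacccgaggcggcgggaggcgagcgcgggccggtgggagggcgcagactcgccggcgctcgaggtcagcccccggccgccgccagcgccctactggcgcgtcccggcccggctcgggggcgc
Tal1, coding exon, chr4:115063285-115063484: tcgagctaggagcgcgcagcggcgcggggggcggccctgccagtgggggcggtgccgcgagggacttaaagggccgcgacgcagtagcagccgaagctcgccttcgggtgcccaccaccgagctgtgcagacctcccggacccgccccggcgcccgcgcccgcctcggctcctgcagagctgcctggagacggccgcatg
Myod1, coding exon and the introns beside it, chr7:46377704-46377903: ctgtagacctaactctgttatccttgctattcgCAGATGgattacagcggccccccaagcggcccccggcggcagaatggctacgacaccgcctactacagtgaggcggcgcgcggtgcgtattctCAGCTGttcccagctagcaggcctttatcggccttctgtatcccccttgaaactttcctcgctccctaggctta
Hnf4a, intron, chr2:163535041-163535240: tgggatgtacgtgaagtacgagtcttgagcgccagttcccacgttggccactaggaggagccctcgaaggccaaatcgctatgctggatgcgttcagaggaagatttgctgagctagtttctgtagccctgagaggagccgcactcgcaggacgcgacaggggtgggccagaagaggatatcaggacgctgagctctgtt
Gata1, before the start, chrX:7967911-7968160, minus strand: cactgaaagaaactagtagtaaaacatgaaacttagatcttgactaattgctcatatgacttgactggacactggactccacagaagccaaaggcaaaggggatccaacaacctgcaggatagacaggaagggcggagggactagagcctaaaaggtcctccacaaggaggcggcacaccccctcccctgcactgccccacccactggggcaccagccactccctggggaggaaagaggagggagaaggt
Hnf4a, before the downstream start, chr2:163546905-163547154: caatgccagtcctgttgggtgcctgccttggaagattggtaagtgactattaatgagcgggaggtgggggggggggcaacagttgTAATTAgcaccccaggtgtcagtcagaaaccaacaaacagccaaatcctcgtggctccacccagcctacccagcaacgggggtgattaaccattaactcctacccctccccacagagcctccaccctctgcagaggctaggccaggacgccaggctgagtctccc
The Sox17 and Gata4 centres held 29 and 31 CpG dinucleotides in 200 bases, with a GC content of 74.0% and 77.5%. The Tal1 centre was close to these, with 27 CpGs and 76.0%, although its interval was less dense, at 638 normalised counts per kb. The Myod1 and Hnf4a centres held 14 and 12 CpGs, with a GC content of 58.0% and 57.0%. The 250 bases before the Gata1 start held 2 CpGs, and those before the downstream Hnf4a start held 4. This Hnf4a stretch also overlaps an annotated exon. The Sox17 centre contained a GATA-type match (AGATAA) at base 86 and a SOX-type match (ACAATG) at base 95. In the Myod1 centre there were an E-box match to CAGATG at base 34 and one to CAGCTG at base 127. No match to these 7 motifs was found in the Gata4, Tal1 and Hnf4a centres or before the Gata1 start. RefSeq promoter entries were matched for 5 of the 9 genes. Over all 32851 RefSeq promoter stretches of 250 bases, AGATAA was present in 9.99% and TAATTA, matched once before the downstream Hnf4a start, in 4.84%.

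Accessibility is given as normalised counts per kb, that is the fragment count of an interval divided by the size factor of the library and by the interval length. Over the 54 intervals the median was 232 in replicate 1 and 212 in replicate 2, or 216 for the mean of the replicates, against 138 over all intervals. A mean normalised count over 100 was reached by 30 of the 54 (55.6%), against 38.8% of all intervals. The range ran from 8.84 counts per kb at a Gata6 interval with 8 and 7 counts to 1241 at a Sox17 interval with 1282 and 1237. The members were thus neither uniformly weak nor uniform among themselves, and their spread is shown by gene in the plot of interval densities.

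**Figure D1:**
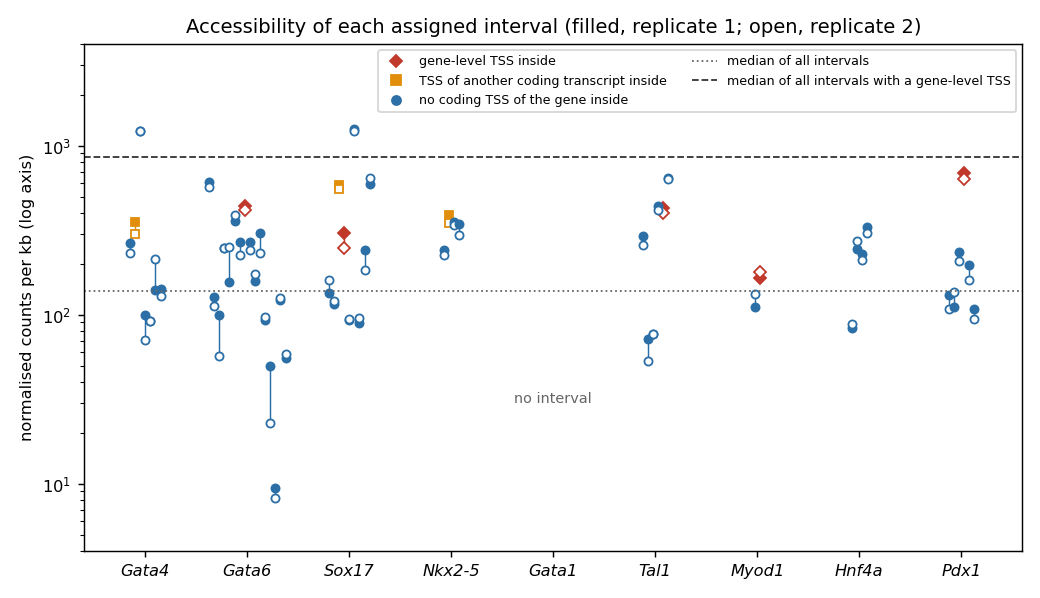
Normalised counts per kb (log axis) of each of the 54 intervals by gene, filled symbols for replicate 1 and open for replicate 2, joined by a line; colours mark whether a TSS of the gene lies inside. Only 1 interval of Gata4 and 1 of Sox17 lie above the median of all intervals with a gene-level TSS (853), and Gata1 has no interval.

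The first question was whether the start sites of these genes lay in open chromatin. Using the gene-level TSS of GENCODE, which is the outermost start of the gene, 5 of the 9 genes had an interval over it (Gata6, Sox17, Tal1, Myod1 and Pdx1), against 61.5% of 21938 protein-coding genes. With the start of any coding transcript the number was 7, with Gata4 and Nkx2-5 added, against 66.7% of all genes. Gata1 and Hnf4a had none by either definition. Their shares, 55.6% and 77.8%, were below and above those of all genes, respectively.

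The density at these promoters was low. Over the 5 genes the median was 415 normalised counts per kb, against 884 over all genes with a TSS interval. Pdx1 had 663 ± 37.2, Gata6 426 ± 16.2, Tal1 415 ± 18.1, Sox17 276 ± 40.5 and Myod1 172 ± 9.96 (SD, n = 2). Every one was below the median of all such genes: 35.0% of them were lower than Pdx1, 20.1% lower than Gata6, 19.4% lower than Tal1, 12.2% lower than Sox17 and 7.01% lower than Myod1.

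Taking the densest interval with any coding start, the order was Pdx1, Sox17 (569 ± 20.7), Gata6, Tal1, Nkx2-5 (369 ± 31.1), Gata4 (326 ± 36.3) and Myod1. Among neighbours in this order, the replicate values of Gata6 (437 and 414) and Tal1 (428 and 402) overlapped, and so did those of Nkx2-5 (391 and 347) and Gata4 (352 and 300). The other neighbours did not overlap. The median of the 7 was 415, against 881 over all genes with such an interval.

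Gata4, Gata6 and Sox17 act in early endoderm, and Gata4 and Gata6 also in the heart. Gata4 had 7 intervals, of which 5 had a mean over 100. Its outermost TSS was not covered, and the nearest interval began 714 bp away, with 263 and 266 counts spread over 2884 bp (91.7 ± 0.683 normalised counts per kb). A second broad interval of 3308 bp (chr14:63244645-63247952) contained the starts of downstream coding transcripts and held 1163 counts in replicate 1 and 994 in replicate 2. The densest lay in an intron 15.8 kb downstream of the outermost TSS (chr14:63255448-63256368), with 1125 and 1120 counts in 921 bp.

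That intronic interval, whose centre is printed above, reached 1219 ± 4.54 normalised counts per kb, and 95.9% of all intervals were lower. The replicates were nearly equal there. No GENCODE transcript of any kind started inside it. Its ratio of observed to expected CpG was 0.861, against a median of 0.229 over all intervals and 0.698 over all intervals with a gene-level TSS. An interval over coding exon and UTR at 30.7 kb had 345 and 302 counts, and an intronic one at 7.02 kb had 49 and 35. Upstream, within the genes Gm49390 and Gm5463, intervals at 54.5 and 67.0 kb had 39 and 59 and 107 and 97 counts.

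Gata6 had the most intervals, 16, and more than 91.8% of protein-coding genes. They lay in a stretch of 454 kb nearer to the Gata6 TSS than to any other coding TSS, so the number per 100 kb was 3.53, and 32.0% of genes had fewer. The interval over the TSS (chr18:11051368-11055220) was the longest of the 54, at 3853 bp, with 1683 and 1596 counts. It also covered the starts of the bidirectional noncoding RNA 1010001N08Rik, so its counts belong to both promoters.

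The densest Gata6 interval was intergenic and 147 kb upstream, with 1173 and 1094 counts in 1920 bp (590 ± 29.4 normalised counts per kb). When the start of every coding transcript was used, this interval went to Mib1, 105 kb away, so its link to Gata6 rests on the annotation chosen. Between them, 4 intervals inside the noncoding gene 1010001N08Rik lay 11.8 to 52.4 kb upstream with 204 to 372 counts per kb. The one at 16.6 kb had 60 counts in replicate 1 and 96 in replicate 2, the largest gap in proportion among members with a mean over 50. In the other direction, 6 intergenic intervals lay 112 to 275 kb downstream, and 2 of them, with 13 and 6 and with 8 and 7 counts, were the weakest of all 54.

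Sox17, which also acts in endothelium, had 9 intervals, of which 7 had a mean over 100. Its outermost TSS lay in an interval of 1315 bp with 401 counts in replicate 1 and 326 in replicate 2, which the antisense gene Gm37587 shares. A second one, over the downstream start, coding exon and UTR (chr1:4491674-4493820), had 1253 and 1191 counts in 2147 bp, and its density was above that of the first in both replicates (584 and 555 against 305 and 248). Thus the more open of the annotated Sox17 promoters was the downstream one.

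The densest of all 54 intervals was intergenic, 74.4 kb upstream of Sox17 (chr1:4571292-4572306), with 1282 and 1237 counts in 1015 bp, or 1241 ± 32.1 normalised counts per kb (SD, n = 2). No GENCODE transcript began in it, its CpG ratio was 0.701, and 96.0% of all intervals were lower. A further one at 115 kb reached 617 ± 34.0, with 353 and 382 counts. The remaining intervals upstream, at 23.5, 101 and 111 kb, had 93.6, 93.0 and 213 counts per kb, and those beyond the gene, at 15.9 and 17.5 kb, had 118 and 148. Accessibility upstream of Sox17 was thus concentrated in the intervals at 74.4 and 115 kb.

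**Figure D2:**
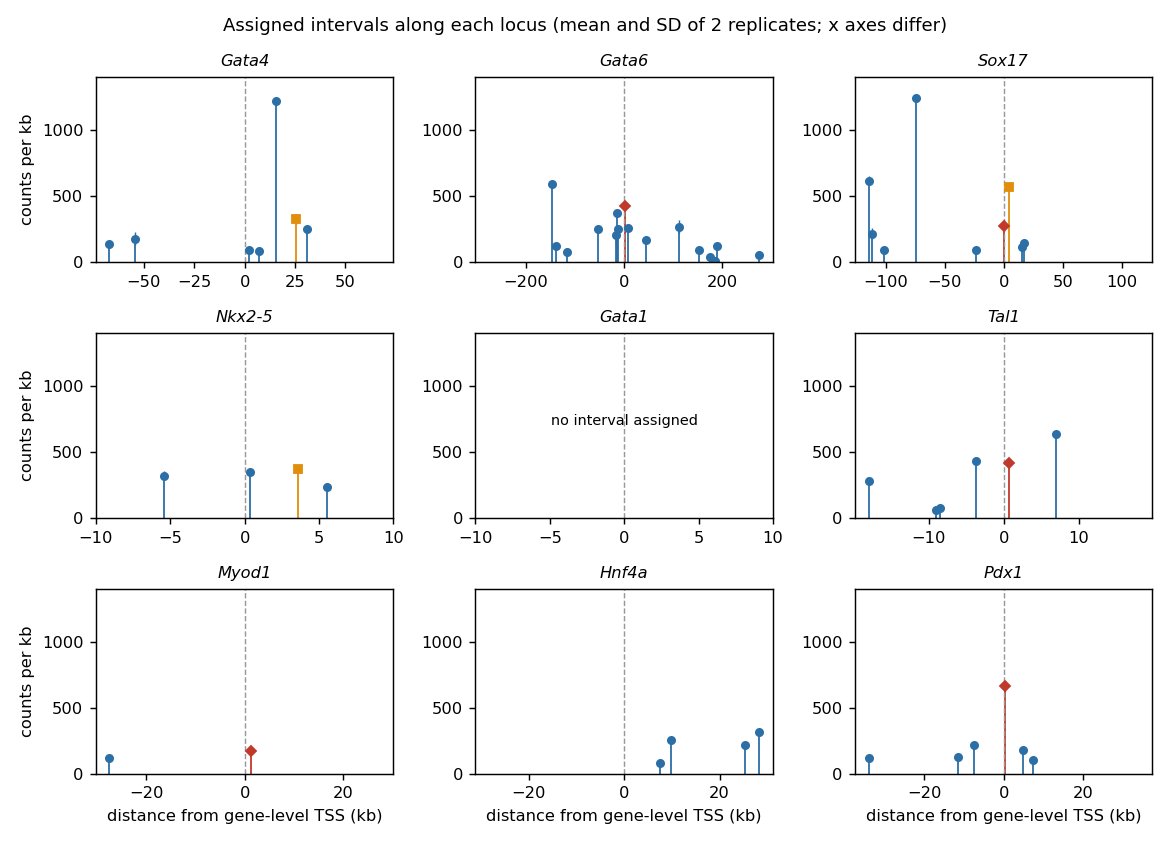
Mean normalised counts per kb (vertical axis, the same in each panel; error bars, SD of 2 replicates) against the distance of the interval midpoint from the gene-level TSS in kb, positive in the direction of transcription; the horizontal scale differs between genes. The tallest lines lie away from the TSS at Sox17 (74.4 kb upstream) and Gata4 (15.8 kb downstream), and at the TSS for Pdx1.

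Nkx2-5 is a homeodomain factor of the early heart. It had 4 intervals, each with a mean over 100, and they were the most even set among the genes with more than 2: 303 and 286 counts at 5.56 kb downstream over coding exon and UTR, 206 and 183 at 3.59 kb over the RefSeq start, 243 and 234 beside the outermost TSS, and 597 and 509 at 5.45 kb upstream. Their densities spanned 234 to 369 normalised counts per kb. The outermost TSS was 1 bp outside its neighbouring interval, so whether the gene had a TSS interval turned on a single base. All 4 had a CpG ratio over 0.6.

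Gata1 and Tal1 are needed for blood formation, Gata1 for red cells and platelets and Tal1 for the blood lineage as a whole. Gata1 was the only one of the 9 genes with no assigned interval. The nearest was 21.1 kb from its GENCODE TSS and 10.9 kb from its RefSeq start, lay 2.30 kb past the end of the gene (chrX:7956405-7956962), and was assigned to Hdac6, with 154 and 137 counts. With the start of every coding transcript it went to Gata1 instead, which then had 1 interval. A stretch of 45.1 kb containing the whole gene held no interval. The table lists a region only if its peak met the calling threshold, so weaker signal in that stretch was not measured. Within 50 kb of the Gata1 TSS there were 9 intervals whatever their assignment, against a median of 7 over all genes, so the surroundings were not empty.

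Tal1 had 6 intervals in a short territory of 44.3 kb, which is 13.6 per 100 kb, and 83.4% of genes had fewer. The interval over its starts (1898 bp) had 812 and 764 counts. The densest lay 6.96 kb downstream over coding exon and UTR, with 916 and 901 counts in 1425 bp (638 ± 7.81 normalised counts per kb), and was above the TSS interval in both replicates. Another strong one, 3.72 kb upstream, had 284 and 270 counts (429 ± 15.6). The other 3 were weaker in counts: 23 and 17, 34 and 34, and 64 and 57, the last inside a coding exon of the neighbouring gene Stil.

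Myod1, which can turn fibroblasts into muscle cells, had 2 intervals. The one over its TSS covered the whole gene and was 2881 bp long, with 474 and 515 counts, or 172 ± 9.96 normalised counts per kb, the lowest density among the 5 TSS intervals. The other, 27.4 kb upstream at the start of the noncoding gene 1700025L06Rik, had 45 and 54 counts. Both were higher in replicate 2.

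Hnf4a drives hepatocyte genes and Pdx1 is required for the pancreas. Neither of the RefSeq starts of Hnf4a lay in an interval: the nearest was 7.06 kb from the upstream start and 11.7 kb from the downstream one. Its 4 intervals were all downstream of the outermost TSS. They had 54 and 57 counts at 7.44 kb, over the start of the snRNA gene Gm25881, 78 and 87 at 9.82 kb, 74 and 68 at 25.4 kb and 215 and 200 at 28.3 kb. Only the last, in an intron, had a mean over 100, and at 317 ± 16.4 normalised counts per kb it was the densest; the summed normalised count of Hnf4a, 417, was the lowest among the 8 genes with an interval.

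Pdx1 had 6 intervals, and the densest was the one over its TSS, with 529 and 489 counts in 768 bp (chr5:147269854-147270621). At 663 ± 37.2 normalised counts per kb this was the densest promoter of the 9 genes. Its mean normalised count, not divided by length, was 509. By that measure it was below the TSS intervals of Gata6 (1640) and Tal1 (788), and above those of Myod1 (494) and Sox17 (364). The intervals flanking it within 10 kb were weaker: 242 and 213 counts at 7.48 kb upstream, 193 and 158 at 4.78 kb downstream over coding exon and UTR, and 109 and 95 at 7.43 kb downstream. At 11.5 and 34.0 kb upstream, in introns of the noncoding gene Plut, 23 and 28 and 74 and 61 counts were found.

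Per gene, the number of intervals was 16 at Gata6, 9 at Sox17, 7 at Gata4, 6 at both Tal1 and Pdx1, 4 at both Nkx2-5 and Hnf4a, 2 at Myod1 and 0 at Gata1, against a median of 3 over all genes. The summed normalised count was 3901 ± 116 at Gata6, 3638 ± 107 at Sox17 and 2982 ± 156 at Gata4 (SD, n = 2), and 91.9%, 90.6% and 85.7% of genes had less. The same sum was 2088 ± 64.8 at Tal1, 1281 ± 97.6 at Nkx2-5, 1107 ± 89.7 at Pdx1 and 544 ± 35.0 at Myod1. The sums of Gata6, Sox17 and Gata4 were thus above those of the others. With the start of every coding transcript, Gata4 (3752) was above Gata6 (2727), so the order among these 3 depends on the annotation. These 3 also had the longest stretches assigned to them, 454, 188 and 112 kb. Within 50 kb of the TSS, whatever the assignment, they had 6, 5 and 5 intervals, against a median of 7 over all genes. Nkx2-5 and Myod1 had 7 each, Gata1 9, Tal1 10, and Hnf4a and Pdx1 14 each.

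The 54 intervals were also compared with all intervals in position and length. By gene-level TSS, 5 contained one (9.26%, against 10.2% of all intervals). An edge within 10 kb of the TSS was found for 17 others (31.5%), against 14.5% of all intervals. More than 100 kb away were 12 (22.2% against 27.1%), all of them at Gata6 or Sox17. Of the 49 without a gene-level TSS, 3 contained the start of another coding transcript of the same gene. By annotation, 22 were intergenic and 14 intronic, and 8 overlapped coding sequence without a gene-level TSS. These annotation classes were not counted over all intervals.

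Length varied from 186 to 3853 bp, with a median of 652 bp against 525 bp over all intervals. Of the 54, 4 were at least 2500 bp long (7.41%), against 0.977% of all intervals. This length limit was chosen with the values in view. These were the Gata6 TSS interval, both broad Gata4 intervals and the Myod1 interval, and each was of modest density for its length. Among the 729 intervals of at least 2500 bp with a coding TSS, 29.4% were lower than the Gata6 interval, 18.7% lower than the Gata4 interval of 3308 bp and 4.66% lower than the Myod1 interval, and 1.78% were lower than the other Gata4 interval, which contains no coding TSS itself.

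**Figure D3:**
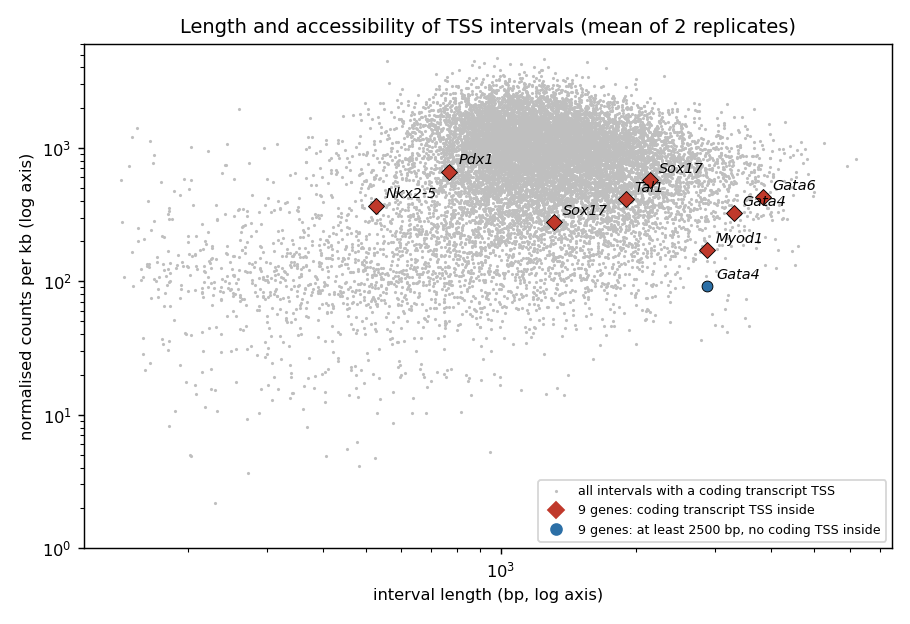
Interval length in bp against normalised counts per kb (mean of 2 replicates, both axes log) for all intervals with a coding transcript TSS (grey; those with no counts are not drawn) and for the promoters of the 9 genes (red), with the broad Gata4 interval without a coding TSS in blue. Gata6, Gata4 and Myod1 lie at the right, at lengths of 2881 to 3853 bp, and below the middle of the grey points of that length.

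CpG content went the same way. A ratio of observed to expected CpG over 0.6 was found in 17 of the 54 (31.5%), against 10.5% of all intervals. Among the 46 without a coding TSS of the gene, it was found in 11 (23.9%), against 2.75% of all intervals without any coding TSS. The GC content had a median of 52.2% against 49.4%. CpG-rich intervals were found at each of the genes except Hnf4a, whose 4 intervals had ratios of 0.093 to 0.534, and Gata1.

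Binding motifs of the lineage factors were then searched in the central 300 bp of each interval on both strands. The GATA-type letters AGATAA were present in 12 of the 54 (22.2%), against 13.7% of all intervals. The E-boxes CAGCTG and CAGATG were in 24.1% against 22.2% and 14.8% against 26.9%. The SOX-type ACAATG was in 20.4% against 21.3%, the homeodomain core TAATTA in 3.70% against 7.0%, the FOX-type TGTTTAC in 3.70% against 4.38%, and AGGGGGC, part of the CTCF consensus, in 3.70% against 7.32%. CAGCTG reads the same on both strands, and none of the motifs contains another. In the central 200 bp, AGATAA was in 13.0% against 9.43% and ACAATG in 20.4% against 15.8%, so the direction for ACAATG turned with the window. None of these differences in share was tested, and a match describes the letters and not a bound site.

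Other regulators of the same lineages, taken as lists, were set beside the 9 genes. A gene-level TSS interval was found for 7 of 10 endoderm genes, 6 of 9 heart genes, 6 of 10 blood genes, 4 of 7 muscle genes and 6 of 8 liver and pancreas genes, or 57.1% to 75.0%, against the 61.5% of all genes. At the gene-level TSS, median promoter densities were 357 for endoderm, 885 for heart, 365 for blood, 444 for muscle and 687 normalised counts per kb for liver and pancreas, against 884 over all genes with a TSS interval and 1178 for 6 neural progenitor genes. By this measure the heart list was level with the median of all genes, and the other 4 lineage lists were below it. At the densest interval with any coding start, the medians were 400 for endoderm, 874 for heart, 616 for blood, 358 for muscle and 682 for liver and pancreas, against 881 over all genes, so the blood list moved most and the order of the lists changed.

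Within each list the levels were wide apart. Among endoderm genes, Hhex had 857 ± 69.3 and Mixl1 187 ± 1.23, and among heart genes Tbx20 had 1530 ± 2.18 and Hand1 161 ± 4.71 (SD, n = 2). Isl1, a heart factor that is also a motor neuron gene, had 1087 ± 36.9, and Prox1, which is used in spinal interneurons too, was the highest of liver and pancreas at 961 ± 44.3. At the gene-level TSS, Ikzf1 was highest of the blood list at 682 ± 13.7 and Runx1 lowest at 10.4 ± 4.34. At another coding start Gata3 had 1583 ± 19.2, against 400 ± 16.5 at its gene-level TSS, and Runx1 had 748 ± 48.7, so both then stood above Ikzf1. Muscle ran from Mef2d at 748 ± 32.9 to Pax7 at 286 ± 15.3, and Ptf1a was lowest of liver and pancreas at 284 ± 14.0. For comparison, Sox2 had 862 ± 25.8 and Pax6 had 187 ± 3.57 at its outermost TSS and 1121 ± 12.3 at another.

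**Figure D4:**
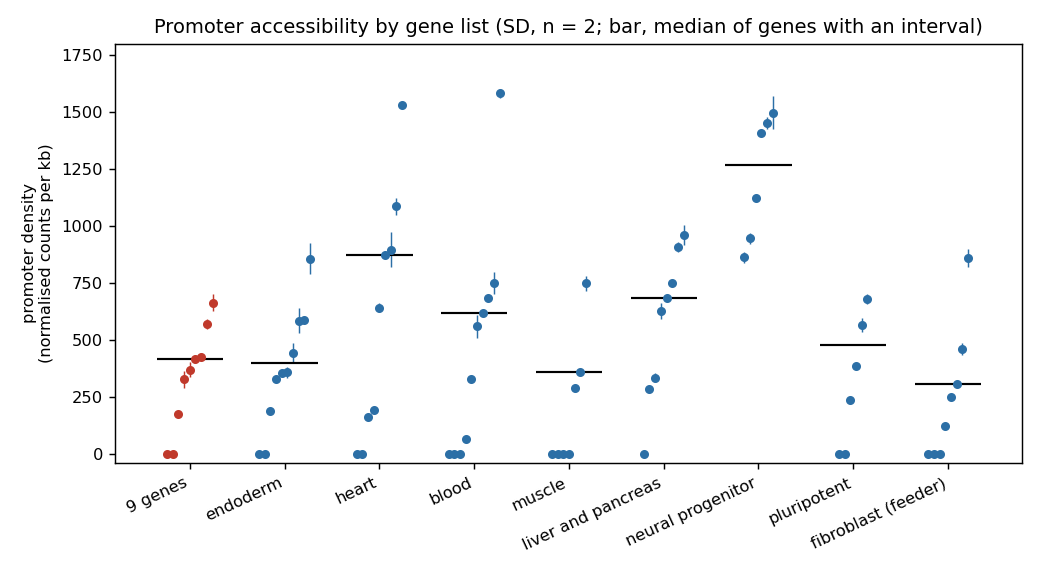
Promoter density in normalised counts per kb (mean of 2 replicates, error bars SD) for each gene, taken at the densest interval with the start of any coding transcript and drawn at 0 where there is none; black bars are medians over genes with such an interval. The 9 genes (red) have 2 at 0 and 7 between 172 and 663, and the 6 neural progenitor genes lie between 862 and 1498.

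The replicates were then compared at each interval. When the libraries were compared by an exact binomial test (Benjamini-Hochberg adjustment over all intervals), 0 of the 54 differed between the libraries at 0.01, as did 0 of all (0%), and 4 of the 54 had an unadjusted p under 0.05 (7.41%, against 7.84% of all intervals). With edgeR TMM factors 6 of all intervals and 0 of the 54 were called. The smallest adjusted p by the exact binomial test was 0.199, at the Gata4 interval of 3308 bp. The other 3 were the Gata6 interval 16.6 kb upstream (adjusted p = 0.383), the Sox17 TSS interval (0.395) and the Nkx2-5 interval 5.45 kb upstream (0.424), by the same exact test. Differences such as 401 against 326 counts did not pass the test over all intervals.

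Of the 30 members with a mean over 100, 22 (73.3%) were higher in replicate 1, against 52.2% of all such intervals. The share was 69.1% over all intervals with a gene-level TSS and 78.3% over those of at least 2500 bp. Most of the 30, however, held no gene-level TSS: of these 25 members, 18 (72.0%) were higher in replicate 1, against 46.6% of all such intervals without one. The Myod1 TSS interval was among those that were higher in replicate 2. The part of interval class in the share was not tested.

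**Figure D5:**
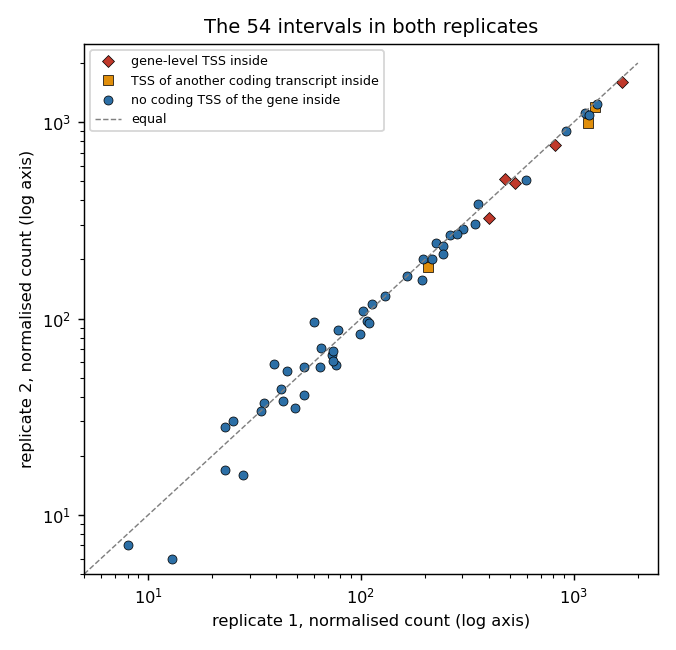
Normalised count of each of the 54 intervals in replicate 1 and in replicate 2 (both axes log), with a dashed line where they are equal. The intervals follow the line from 8 and 7 counts to 1683 and 1596, and most of the strong ones lie slightly below it.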

How the data were processed

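The deposited table held raw counts of fragments in consensus intervals of mm10, made by the authors. Per the file header, featureCounts 2.0.1 counted read pairs, counting a fragment in every interval it overlapped by a fraction of 0.2 or more. Peaks were called with MACS in an nf-core pipeline, as the study's methods describe. The intervals were defined over 5 libraries, and 3 columns that belong to no sample of the series were not used.

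Each count was scaled by the DESeq2 (1.42.0) size factor of its library and then by length in kb. TSSs were taken from GENCODE vM21 and promoter sequences from RefSeq, and all intervals ended within the chromosomes of that assembly. Each interval was tested between the libraries with a two-sided exact binomial test and Benjamini-Hochberg adjustment over 119502 intervals. This compares libraries, not conditions. The test was also run on simulated splits of the pooled counts. Those splits follow the binomial model that the test assumes, so they cannot show how it behaves under added variation between libraries. CpG ratios were computed over the whole interval.

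Named genes were the 9 genes with their TSS, nearest and densest intervals, the highest and lowest promoter of each list, and 4 neural genes; Isl1 and other values were added after they were seen. The members and lists were chosen with earlier results of these data known. Alternatives covered normalisation (edgeR 4.0.16 TMM), filters, TSS definition, distance, window and leaving out each replicate. Python 3.11.15, pandas 2.3.3, scipy 1.17.1 and statsmodels 0.14.6 were used. Fragments carry no molecular identifiers.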

Additional observations from a re-analysis of the deposited data

How the results depend on the processing

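No paired analysis was possible because the labels gave a single group. The number of intervals (52 to 57), of genes with a TSS interval (5 to 7), of intervals with a mean over 100 (28 to 40, the highest with a limit of 50) and of intervals called between libraries (0) stayed within 1.5 times of the reported value in every alternative run. The median density was 216, or 212 without replicate 1 and 232 without replicate 2; counted per interval in place of per kb, the median was 110 normalised counts. Using the start of every coding transcript moved the summed normalised count of Gata4 (3752), Gata6 (2727), Hnf4a (568) and Gata1 (1 interval, 146), since intervals went to other genes, and the 200 bp window lowered the share with AGATAA to 13.0%. Each SD rests on the difference between 2 libraries.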
